A study of Homo sapiens with 12 samples.

Results

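The genes described are the death receptors and the caspase-8 axis, 10 of the 60648 genes in each count table: TNFSF10, TNFRSF10A, TNFRSF10B, TNFRSF10C, TNFRSF10D, FAS, FADD, CASP8, CASP10 and CFLAR. They were chosen by gene symbol, and all 10 were found in both tables. Messenger RNA was measured in 12 libraries of 2 human cell lines from acute myeloid leukemia, MOLM13 and OCIAML5, in 6 groups of 2 libraries. In a first experiment MOLM13 cells with a hairpin against PSPC1 were set against MOLM13 cells with a control hairpin, and OCIAML5 cells with a PSPC1 hairpin against OCIAML5 cells with a control hairpin. In a second experiment OCIAML5 cells with a hairpin against SPI1, the gene of PU.1, were set against OCIAML5 controls of their own. PSPC1 is an RNA-binding protein of nuclear paraspeckles and PU.1 a transcription factor of myeloid cells. Per the labels all cells were infected with lentivirus and then selected with puromycin or sorted for GFP, and OCIAML5 was grown in another medium than MOLM13, with GM-CSF added. Each line is a single culture-adapted leukemia, and how many hairpins were used was not given in the sources used here.

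Death receptors are cell-surface receptors that can start apoptosis from outside the cell. The ligand TRAIL, encoded by TNFSF10, binds DR4 (TNFRSF10A) and DR5 (TNFRSF10B), whose intracellular death domains recruit the adaptor FADD, as FAS does when it binds its own ligand. FADD brings in the initiator proteases caspase-8 and caspase-10 (CASP8, CASP10), which activate one another in the complex, and c-FLIP (CFLAR), a caspase-8 relative without protease activity that restrains them. The decoy receptors DcR1 (TNFRSF10C) and DcR2 (TNFRSF10D) bind TRAIL but lack a working death domain. FAS and TNFRSF10B are textbook targets of p53, TNFSF10 of interferon and CFLAR of NF-kB, and many leukemia cells express the receptors while resisting TRAIL.

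Promoter windows of 300 bases (RefSeq, GRCh38.p14) were matched for 5 of the 10 genes, 12 windows in all, and the 4 windows that hold an interferon response element or an NF-kB site are shown. In the first pair of windows capitals mark an interferon response element, here GAAA, then any 2 bases, then GAAA on either strand, in the FAS window a p53 half-site and an NF-kB site, and in the CFLAR window an NF-kB site.
TNFSF10, chr3:172523381-172523680, minus strand: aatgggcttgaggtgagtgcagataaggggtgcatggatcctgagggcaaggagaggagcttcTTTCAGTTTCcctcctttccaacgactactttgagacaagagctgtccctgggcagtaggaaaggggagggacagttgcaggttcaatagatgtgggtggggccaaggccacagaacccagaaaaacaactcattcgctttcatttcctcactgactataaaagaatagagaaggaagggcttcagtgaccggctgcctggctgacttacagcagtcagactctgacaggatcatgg
CASP8, chr2:201233213-201233512, plus strand: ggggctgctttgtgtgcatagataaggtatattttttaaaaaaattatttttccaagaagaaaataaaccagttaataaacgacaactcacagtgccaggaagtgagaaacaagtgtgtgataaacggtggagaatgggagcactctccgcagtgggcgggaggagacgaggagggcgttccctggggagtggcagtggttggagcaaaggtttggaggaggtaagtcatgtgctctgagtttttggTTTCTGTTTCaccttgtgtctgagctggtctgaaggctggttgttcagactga
FAS, chr10:88991181-88991480, plus strand: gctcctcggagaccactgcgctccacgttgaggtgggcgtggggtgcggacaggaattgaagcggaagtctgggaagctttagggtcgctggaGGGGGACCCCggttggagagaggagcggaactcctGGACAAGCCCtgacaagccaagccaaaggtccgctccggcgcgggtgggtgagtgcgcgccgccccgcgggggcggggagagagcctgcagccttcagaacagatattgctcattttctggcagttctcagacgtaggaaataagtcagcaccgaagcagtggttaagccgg
CFLAR, chr2:201118466-201118765, plus strand: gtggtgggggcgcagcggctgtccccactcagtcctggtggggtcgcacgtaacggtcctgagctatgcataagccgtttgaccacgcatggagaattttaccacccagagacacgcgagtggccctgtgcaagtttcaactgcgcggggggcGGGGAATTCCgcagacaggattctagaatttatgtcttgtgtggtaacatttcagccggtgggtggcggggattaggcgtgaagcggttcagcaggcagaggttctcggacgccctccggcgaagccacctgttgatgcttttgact
The interferon response element was present in 2 of the 12 windows, against 3.57% of all 35116 windows of the same length. It began 187 bases before the start site in TNFSF10 and 3 bases before it in CASP8. The p53 half-site consensus was in 2 of the 12 windows, against 6.63%, and the NF-kB consensus in 2, against 11.3%. The NF-kB match of FAS read as one on both strands and was counted on each. The ETS core GAGGAAGT, a form of the PU.1 site, was in 0 of the 12, against 2.59%. TGANTCA, a loose form of the AP-1 site, was in 5, against 7.71%. It allows any middle base, where the AP-1 site has C or G, and in the CFLAR, FAS and FADD windows it read TGAATCA. These counts describe letters in the windows, both strands were searched, and several windows belong to the same gene.

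The targeted genes checked the labels. PSPC1 fell by 2.27 ± 0.07 on the log2 scale (SE) after its knockdown in MOLM13 and by 2.38 ± 0.07 in OCIAML5, and SPI1 fell by 2.20 ± 0.05 after PU.1 knockdown. PSPC1 also fell by 0.89 ± 0.05 after PU.1 knockdown. After PSPC1 knockdown SPI1 rose by 0.44 ± 0.05 in MOLM13 and by 0.13 ± 0.05 in OCIAML5. Each library of the PSPC1 experiment held 15.4 to 22.8 M counts and each of the PU.1 experiment 26.3 to 39.7 M. Of 14 myeloid markers, 12 or 13 were above 1 CPM (counts divided by the scaled library size in M) in each library, and CD14 averaged at most 0.0588 CPM in a group. Summed myeloid markers stood at 1890 and 1884 CPM after PSPC1 knockdown in MOLM13, against 1771 and 1749 CPM in controls. In OCIAML5 they were 1314 and 1304 CPM after PSPC1 knockdown, against 1309 and 1293 CPM in controls. PU.1-knockdown libraries had 718 and 696 CPM, against 1188 and 1148 CPM in controls. The sums hide opposite changes. In the test given below, 4 of 13 tested myeloid markers rose and 4 fell after PSPC1 knockdown in MOLM13, and 3 rose and 7 fell in OCIAML5. After PU.1 knockdown 2 rose and 10 fell. Shares over all genes are given below. SPI1 itself is one of these markers. Summed erythroid markers reached at most 1.23 CPM in any library. Summed lymphoid markers were 14.96 and 13.7 CPM after PSPC1 knockdown in MOLM13, against 28.2 and 27.4 CPM in controls, mostly NKG7, and 14.5 and 15.6 CPM after PSPC1 knockdown in OCIAML5, against 25.1 and 26.1 CPM in controls, mostly PAX5. After PU.1 knockdown they were 6.85 and 5.94 CPM, against 8.27 and 7.77 CPM in controls. Summed epithelial markers were 7.38 and 8.73 CPM after PSPC1 knockdown in MOLM13, against 3.24 and 2.81 CPM in controls, and 8.23 and 7.50 CPM after PSPC1 knockdown in OCIAML5, against 1.74 and 1.01 CPM in controls. CLDN7 made up most of the sums in these knockdown libraries. After PU.1 knockdown they were 1.41 and 1.62 CPM, against 2.53 and 2.76 CPM in controls. From 2 to 7 of the 12 lymphoid markers and from 1 to 7 of the 8 epithelial markers were at 0 in a library. The mitochondrial share of counts was 9.51% and 9.53% after PSPC1 knockdown in MOLM13, against 7.33% and 7.74% in controls, and 11.2% and 11.3% after PSPC1 knockdown in OCIAML5, against 9.45% and 8.29% in controls. The part of these shifts in the results below was not tested. Nothing in the labels tells whether paired libraries of 1 group are separate cultures, so p-values measure the spread between these samples alone, and that may be technical.

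The receptor, caspase and c-FLIP transcripts were mostly higher in the knockdown cells. TNFRSF10C passed the low-count filter of the PSPC1 experiment only through the MOLM13 knockdown libraries, where it was high, and did not pass it in the PU.1 experiment, so the counts here are over the 9 other genes. After PSPC1 knockdown in MOLM13, 7 of the 9 rose and 1 fell, against 27.6% of all 16457 tested genes higher and 29.5% lower (edgeR quasi-likelihood F test, Benjamini-Hochberg adjusted p under 0.05 over all genes). After PSPC1 knockdown in OCIAML5, 7 rose and 1 fell, against 27.5% of all genes higher and 28.4% lower. After PU.1 knockdown 7 rose and 1 fell, against 29.6% higher and 30.9% lower of 16861. Of all calls after PU.1 knockdown 48.9% were higher, and 62.2% with scaling by library size alone, which kept the calls of these genes in their direction. The median log2 fold change of the 9 genes was 0.81, 1.05 and 0.63 in the 3 knockdowns in that order, beside 0.01, 0.02 and 0.02 over all genes. TNFRSF10B, TNFRSF10D, FAS, CASP8, CASP10 and CFLAR rose in all 3 knockdowns, 6 of 9 genes tested in all, against 9.61% of 15396 genes. No gene of the 9 (0) fell in all 3, against 14.4% of all genes. In bulk RNA, fewer cells of a kind and less RNA per cell cannot be told apart.

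**Figure D1:**
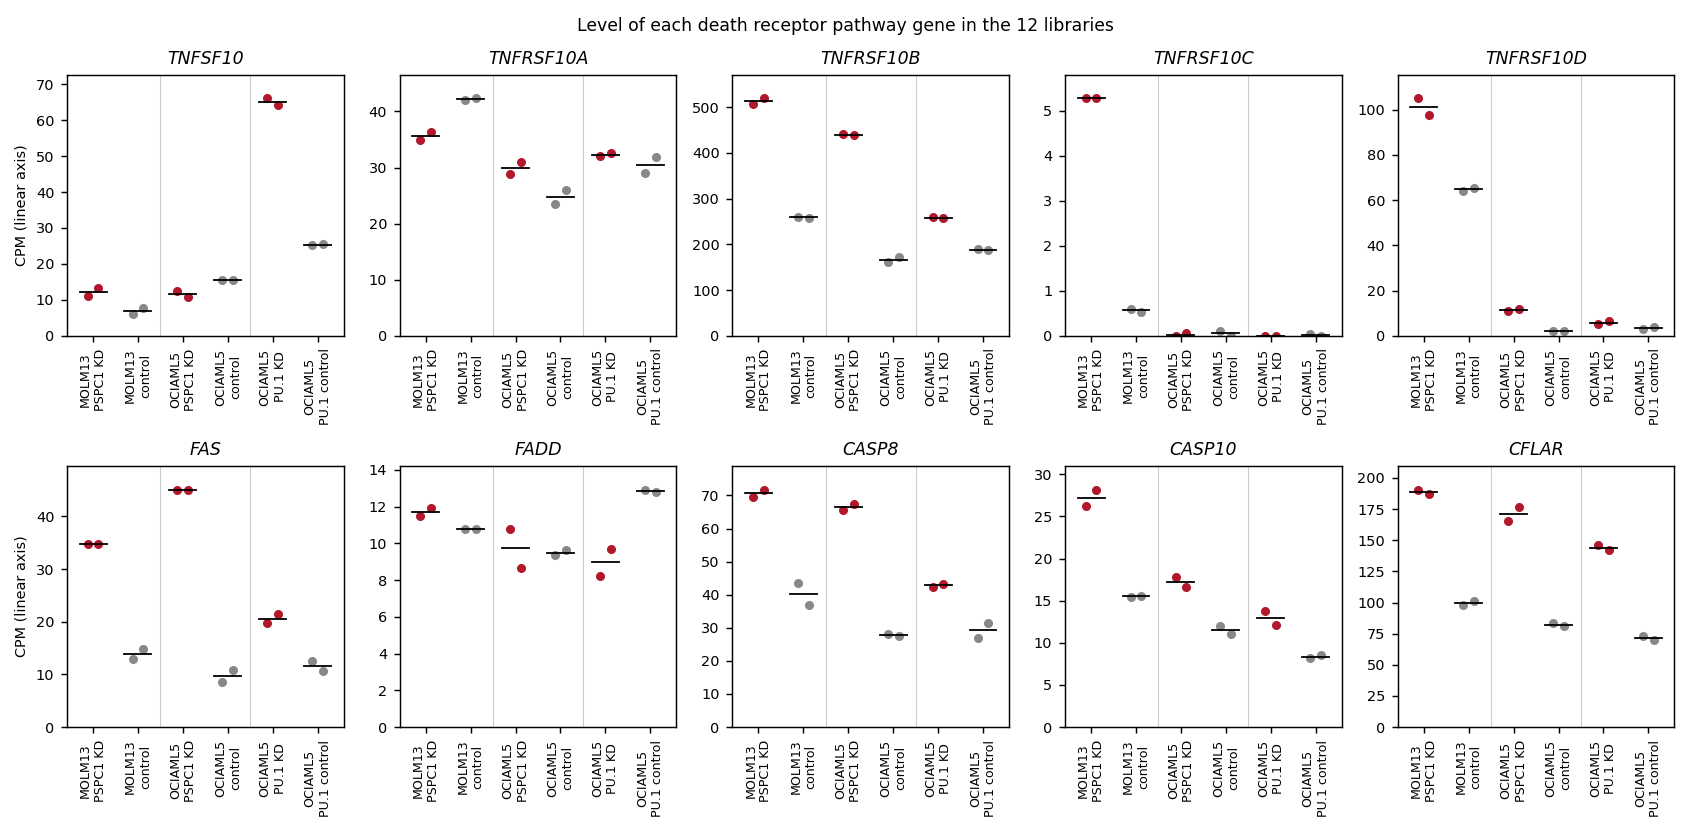
CPM of each gene on a linear axis from 0 in every library, with knockdown libraries in red, control libraries in grey and the mean of each pair as a line. TNFRSF10B, FAS, CASP8, CASP10 and CFLAR sit above their own controls in each of the 3 pairs of groups, whereas TNFSF10 sits above its controls in MOLM13 and after PU.1 knockdown and below them after PSPC1 knockdown in OCIAML5. The experiments were scaled separately, so levels are compared only within one.

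The effect of PSPC1 knockdown on the TRAIL ligand differed between the lines. TNFSF10 had 10.9 and 13.4 CPM in MOLM13 PSPC1-knockdown libraries, against 6.07 and 7.83 CPM in MOLM13 controls. It rose 1.77-fold there (log2 fold change 0.82 ± 0.17 SE, adjusted p = 6.2e-05). In OCIAML5 it had 12.53 and 10.8 CPM after PSPC1 knockdown, against 15.6 and 15.6 CPM in controls, a log2 fold change of -0.41 ± 0.16 (adjusted p = 0.024). The fall did not pass with DESeq2 (adjusted p = 0.067), with scaling by library size alone (0.071), or without OCIAML5 control library 1 (0.064), control library 2 (0.053) or knockdown library 2 (0.16). After PU.1 knockdown the ligand had 66.1 and 64.3 CPM, against 25.3 and 25.4 CPM in its controls, and the rise was 2.57-fold (log2 fold change 1.36 ± 0.07, adjusted p = 7.2e-28). Groups did not overlap in any of these pairs. The OCIAML5 controls of the 2 experiments, at 25.4 CPM in the PU.1 experiment and 15.6 CPM in the PSPC1 experiment on average, were scaled apart and are not compared.

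Of the signalling TRAIL receptors, DR5 was the more abundant per kilobase and rose in all 3 knockdowns. TNFRSF10B had 508 and 519.5 CPM in MOLM13 PSPC1-knockdown libraries, against 259.8 and 258 CPM in controls, a 1.98-fold rise (log2 fold change 0.99 ± 0.04, adjusted p = 1.3e-25). The OCIAML5 values were 441 and 439.7 CPM after PSPC1 knockdown, against 161 and 171 CPM in controls, a 2.65-fold rise (1.41 ± 0.04 on the log2 scale). Both knockdown libraries lay well above both controls in each line. After PU.1 knockdown it had 259 and 258 CPM, against 189.6 and 188 CPM in controls, a 1.37-fold rise (0.45 ± 0.04, adjusted p = 4.4e-15). Per kilobase of principal transcript, TNFRSF10B stood at 62.5 CPM and TNFRSF10A at 15.6 CPM in MOLM13 controls, and at 40.0 and 9.09 CPM in the same order in OCIAML5 controls.

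TNFRSF10A made small changes of either sign. It had 34.9 and 36.4 CPM in MOLM13 PSPC1-knockdown libraries, against 42.1 and 42.4 CPM in controls, a log2 fold change of -0.24 ± 0.09 (adjusted p = 0.022). In OCIAML5 it had 28.9 and 31.0 CPM after PSPC1 knockdown, against 23.4 and 25.9 CPM in controls, a log2 fold change of 0.28 ± 0.10 (adjusted p = 0.014). After PU.1 knockdown it had 32.0 and 32.6 CPM, against 29.04 and 31.8 CPM in controls, and the difference did not pass the test (0.08 ± 0.08, adjusted p = 0.35). The MOLM13 call was lost with DESeq2 (adjusted p = 0.096), with library size alone (0.067) and without MOLM13 control library 1 (0.065), control library 2 (0.065) or knockdown library 1 (0.11). The OCIAML5 call was lost without control library 1 (adjusted p = 0.19) or knockdown library 2 (0.13), and scaling by library size alone turned the PU.1 difference into a call (0.24 on the log2 scale, adjusted p = 0.005).

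The decoy receptors separated the lines. TNFRSF10D had 105 and 97.6 CPM in MOLM13 PSPC1-knockdown libraries, against 64.0 and 65.5 CPM in controls, a 1.56-fold rise (log2 fold change 0.64 ± 0.08, adjusted p = 2.3e-10). In OCIAML5 it had 10.8 and 11.7 CPM after PSPC1 knockdown, against 2.12 and 2.21 CPM in controls, a 5.17-fold rise (2.37 ± 0.17). After PU.1 knockdown it had 5.22 and 6.36 CPM, against 3.17 and 3.92 CPM in controls (0.71 ± 0.19, adjusted p = 0.00072). TNFRSF10C was detected almost entirely in MOLM13, with 80 and 90 counts after PSPC1 knockdown, against 13 and 9 counts in controls. On average that is 5.27 CPM after knockdown, against 0.566 CPM in controls. No test is given for this difference, since the knockdown libraries alone carried the gene past the filter. The OCIAML5 values were 0 and 1 counts after PSPC1 knockdown, against 2 and 0 counts in controls, and 0 and 0 counts after PU.1 knockdown, against 1 and 0 counts in controls. No fold is given for OCIAML5, where every pair totalled at most the floor of 3 counts, equal to 0.0715 CPM after PSPC1 knockdown, 0.0877 CPM in the controls of that experiment, 0.0473 CPM after PU.1 knockdown and 0.0433 CPM in its controls. The 4 TRAIL receptors are close paralogs in a cluster of 205 kb on chromosome 8 (GRCh38, GENCODE), and how reads shared between paralogs were counted was not given in the sources used here.

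FAS, the receptor of FAS ligand, rose in all 3 knockdowns, most after PSPC1 knockdown in OCIAML5. It had 34.8 and 34.7 CPM in MOLM13 PSPC1-knockdown libraries, against 13.02 and 14.8 CPM in controls, a 2.51-fold rise (log2 fold change 1.33 ± 0.11, adjusted p = 1.8e-14). In OCIAML5 it had 45.1 and 45.0 CPM after PSPC1 knockdown, against 8.64 and 10.9 CPM in controls, a 4.64-fold rise (2.21 ± 0.12, adjusted p = 5.6e-22). After PU.1 knockdown it had 19.8 and 21.5 CPM, against 12.54 and 10.7 CPM in controls, a 1.79-fold rise (0.84 ± 0.10). The p53 half-site marked in its window above lies downstream of its GENCODE gene start at position 88990582 on chromosome 10. ACTA2, smooth muscle actin, overlaps FAS on the other strand and had 390 and 552 counts after PSPC1 knockdown in MOLM13, against 125 and 108 counts in controls, and 966 and 778 counts after PSPC1 knockdown in OCIAML5, against 165 and 116 counts in controls. After PU.1 knockdown ACTA2 had 804 and 992 counts, against 407 and 486 counts in controls. Whether reads were counted by strand was not given in the sources used here, so reads of the overlapping part of the genes cannot be assigned with certainty. RHOBTB2, which overlaps TNFRSF10B on the other strand, had lower counts in the knockdown, 283 and 298 counts after PSPC1 knockdown in MOLM13, against 751 and 577 counts in controls.

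The adaptor FADD did not follow its receptors. It had 11.5 and 11.9 CPM in MOLM13 PSPC1-knockdown libraries, against 10.8 and 10.8 CPM in controls (log2 fold change 0.12 ± 0.17, adjusted p = 0.57). The OCIAML5 values were 10.8 and 8.67 CPM after PSPC1 knockdown, against 9.35 and 9.61 CPM in controls, and the groups overlapped (0.05 ± 0.17, adjusted p = 0.85). These tests do not show that it was unaffected. It fell to 8.23 and 9.68 CPM after PU.1 knockdown, against 12.9 and 12.8 CPM in controls, a log2 fold change of -0.51 ± 0.12 (adjusted p = 0.00019).

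Both initiator caspases rose in every knockdown. CASP8 had 69.5 and 71.8 CPM in MOLM13 PSPC1-knockdown libraries, against 43.5 and 36.8 CPM in controls, a 1.75-fold rise (log2 fold change 0.81 ± 0.08). In OCIAML5 it had 65.7 and 67.5 CPM after PSPC1 knockdown, against 28.3 and 27.6 CPM in controls, a 2.38-fold rise (1.25 ± 0.08, adjusted p = 2.1e-18). After PU.1 knockdown it had 42.5 and 43.2 CPM, against 27.0 and 31.5 CPM in controls, a 1.46-fold rise (0.55 ± 0.07). CASP10 had 26.3 and 28.2 CPM in MOLM13 PSPC1-knockdown libraries, against 15.4 and 15.6 CPM in controls (0.81 ± 0.13, adjusted p = 2e-07). Its levels in OCIAML5 were 17.8 and 16.7 CPM after PSPC1 knockdown, against 12.01 and 11.001 CPM in controls (0.58 ± 0.13), and 13.8 and 12.1 CPM after PU.1 knockdown, against 8.20 and 8.51 CPM in controls (0.63 ± 0.12). No knockdown library of either caspase reached down to a control of its own line and experiment.

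CFLAR, the gene of the inhibitor, rose 1.90- to 2.08-fold in the 3 knockdowns. It had 191 and 187 CPM in MOLM13 PSPC1-knockdown libraries, against 97.7 and 101 CPM in controls, a 1.90-fold rise (log2 fold change 0.93 ± 0.05, adjusted p = 9.8e-21). The OCIAML5 values were 165 and 177 CPM after PSPC1 knockdown, against 83.5 and 80.9 CPM in controls, a 2.08-fold rise (1.05 ± 0.05). PU.1-knockdown libraries had 146 and 142 CPM, against 73.2 and 70.2 CPM in controls, a 2.01-fold rise (1.01 ± 0.05, adjusted p = 8.8e-28). CFLAR, CASP10 and CASP8 lie side by side within 172 kb on chromosome 2. Per kilobase, CASP8 stood above CFLAR in MOLM13 controls, at 24.6 and 6.79 CPM in that order by principal transcript. By all annotated exons the values were 5.54 and 4.42 CPM, so the size of the gap depends on the length used. After PU.1 knockdown the order depended on it too, with CASP8 at 26.3 and CFLAR at 9.81 CPM by principal transcript, but 5.915 and 6.39 CPM by all annotated exons.

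**Figure D2:**
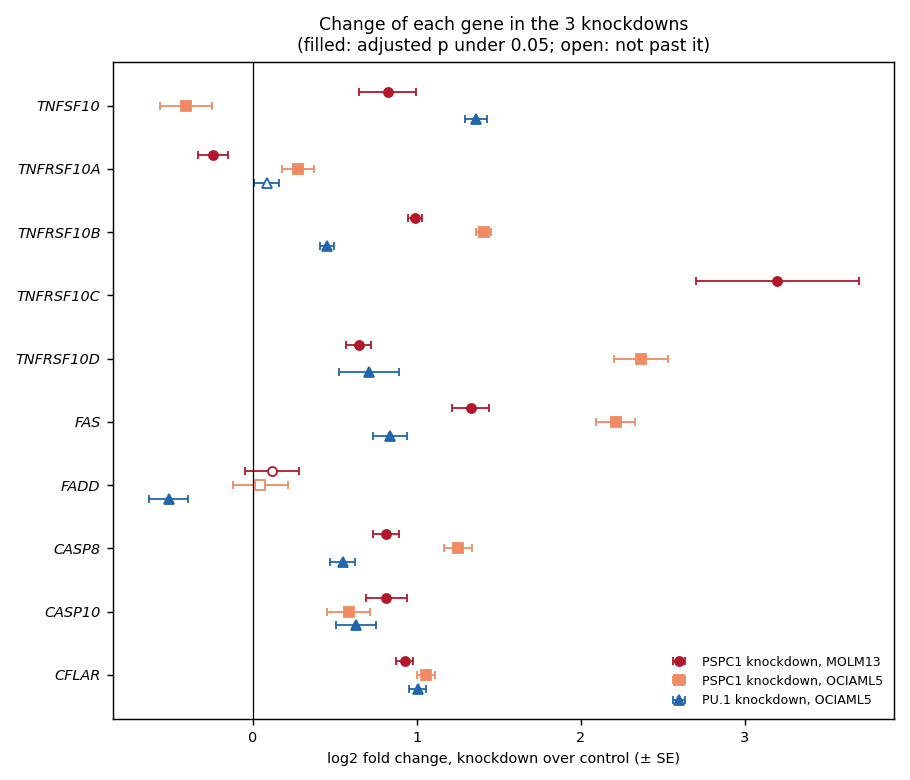
Log2 fold change of each gene, knockdown over control, with its standard error, for PSPC1 knockdown in MOLM13 (circles), PSPC1 knockdown in OCIAML5 (squares) and PU.1 knockdown in OCIAML5 (triangles). CFLAR has 3 overlapping marks near 1, and FAS and TNFRSF10D reach 2.21 and 2.37 after PSPC1 knockdown in OCIAML5. TNFRSF10C has only its MOLM13 value. Its filled mark is not to be read as a test, since the knockdown libraries alone carried the gene past the low-count filter.

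The size of the PSPC1 effect differed between the lines for 6 of the 9 genes with a usable value, 1 higher and 5 lower in MOLM13, against 12.5% of all tested genes higher and 18% lower in the interaction test. The ligand had the only larger effect in MOLM13, with a difference of 1.23 ± 0.23 on the log2 scale (adjusted p = 3.6e-05). TNFRSF10D had the largest difference the other way, -1.72 ± 0.19 (adjusted p = 1.7e-10), followed by FAS at -0.88 ± 0.17 (adjusted p = 3.2e-05). TNFRSF10A differed by -0.52 ± 0.13, TNFRSF10B by -0.42 ± 0.06 and CASP8 by -0.44 ± 0.12. The CASP8 difference did not pass without MOLM13 control library 1 (-0.32, adjusted p = 0.068). CFLAR differed by -0.13 ± 0.08 (adjusted p = 0.22), CASP10 by 0.23 ± 0.18 and FADD by 0.07 ± 0.24, none of which passed. For TNFRSF10C the OCIAML5 counts give no usable value.

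Within OCIAML5, the PU.1 effect minus the PSPC1 effect passed for 6 of 9 genes, 1 higher and 5 lower, against 22.8% of 17159 genes higher and 22.9% lower. TNFSF10 was the gene with the higher effect, by 1.78 ± 0.14 on the log2 scale (adjusted p = 4.3e-15). The effect of PU.1 knockdown was the smaller for TNFRSF10D (-1.65 ± 0.29), FAS (-1.36 ± 0.16), TNFRSF10B (-0.94 ± 0.06) and CASP8 (-0.69 ± 0.11). FADD differed by -0.55 ± 0.20 (adjusted p = 0.025), a call lost with DESeq2 (0.075), with no low-count filter (0.05) and without PSPC1-experiment control library 1 (0.063), PSPC1-knockdown library 1 (0.23), PU.1-experiment control library 1 (0.062) or 2 (0.055), or PU.1-knockdown library 1 (0.15). CFLAR differed by -0.03 ± 0.08, CASP10 by 0.06 ± 0.18 and TNFRSF10A by -0.18 ± 0.13, which did not pass. This test and the one between the lines share the OCIAML5 libraries of the PSPC1 experiment.

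**Figure D3:**
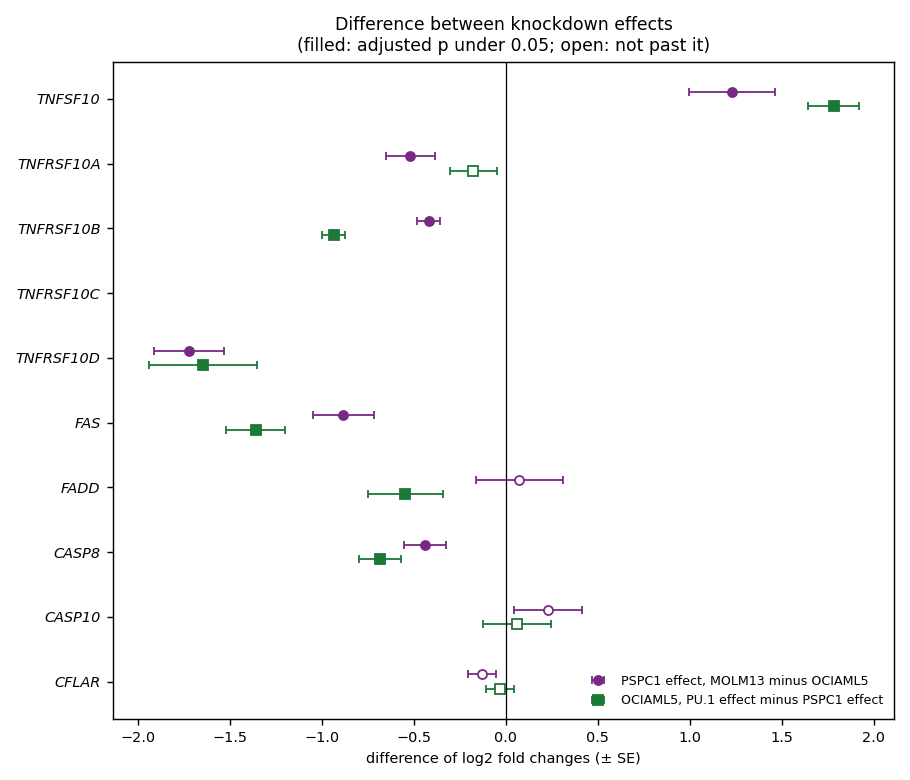
Difference between knockdown effects for each gene on the log2 scale with its standard error, the PSPC1 effect in MOLM13 minus that in OCIAML5 (circles) and, in OCIAML5, the PU.1 effect minus the PSPC1 effect (squares). TNFSF10 is the single gene to the right of 0 with filled marks, at 1.23 and 1.78, and TNFRSF10D lies farthest left at -1.72 and -1.65.

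The control cells already differed. In MOLM13 controls over OCIAML5 controls 7 of the 9 genes other than TNFRSF10C were higher and 1 was lower, against 30% of all tested genes higher and 30.7% lower. These controls are also those of the PSPC1 comparisons above, so the values are not independent of them. TNFRSF10D averaged 64.8 ± 1.07 CPM in MOLM13 controls and 2.17 ± 0.07 CPM in OCIAML5 controls (SD, n = 2 each), a 29.8-fold difference (4.90 ± 0.13 on the log2 scale, adjusted p = 6e-35). TNFRSF10C had 22 counts over the MOLM13 controls and 2 over the OCIAML5 controls, a depth-scaled ratio of 9.74 (95% exact interval 2.39 to 85.5, counting error only), and both of the OCIAML5 counts came from control library 1. TNFRSF10A was higher by 0.78 ± 0.10, TNFRSF10B by 0.64 ± 0.04, CASP8 by 0.53 ± 0.09, FAS by 0.51 ± 0.13, CASP10 by 0.43 ± 0.14 and CFLAR by 0.27 ± 0.06 on the log2 scale. TNFSF10 was the one lower gene, at -1.18 ± 0.17, and FADD did not pass (0.18 ± 0.17, adjusted p = 0.35). The FAS and CASP10 differences did not pass without OCIAML5 control library 1 (adjusted p = 0.063) and control library 2 (adjusted p = 0.057) in that order. In the PSPC1 experiment the levels of TNFRSF10B, CASP8, CASP10 and CFLAR ran in the order MOLM13 knockdown, OCIAML5 knockdown, MOLM13 control, OCIAML5 control with no overlap between neighbours, and for FAS the OCIAML5 knockdown came first. The share of all genes with such an order, or with groups that do not overlap, was not counted. Neither is called a trait of these genes. For TNFSF10 the knockdown libraries of both lines overlapped, and for FADD the OCIAML5 knockdown libraries overlapped with the controls of both lines.

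Ratios between genes within a library are described with no test. TNFRSF10B gave 14.6 and 14.3 counts per TNFRSF10A count in MOLM13 PSPC1-knockdown libraries, against 6.18 and 6.10 in controls, and 15.3 and 14.2 in OCIAML5 PSPC1-knockdown libraries, against 6.86 and 6.60 in controls. After PU.1 knockdown the ratio was 8.09 and 7.92, against 6.53 and 5.89 in controls. Per 100 TNFRSF10B counts, TNFRSF10D gave 20.7 and 18.8 counts in MOLM13 PSPC1-knockdown libraries, against 24.6 and 25.4 in controls, but 2.45 and 2.67 in OCIAML5 PSPC1-knockdown libraries, against 1.32 and 1.29 in controls. The decoy share of the 4 TRAIL receptors, summed as CPM per kilobase of exon, was 22.8% and 21.2% in MOLM13 PSPC1-knockdown libraries, against 22.2% and 22.6% in controls, and 3.10% and 3.37% in OCIAML5 PSPC1-knockdown libraries, against 1.65% and 1.47% in controls. CASP8 gave 6.06 and 6.03 counts per FADD count in MOLM13 PSPC1-knockdown libraries, against 4.03 and 3.42 in controls. In OCIAML5 this ratio was 6.10 and 7.78 after PSPC1 knockdown, against 3.02 and 2.88 in controls. After PU.1 knockdown it was 5.16 and 4.46, against 2.09 and 2.46 in controls. CFLAR gave 2.74 and 2.61 counts per CASP8 count in MOLM13 PSPC1-knockdown libraries, against 2.25 and 2.75 in controls, 2.51 and 2.62 in OCIAML5 PSPC1-knockdown libraries, against 2.95 and 2.93 in controls, and 3.44 and 3.28 after PU.1 knockdown, against 2.71 and 2.23 in controls. The inhibitor stood lower relative to CASP8 in the OCIAML5 PSPC1-knockdown libraries, higher after PU.1 knockdown, and overlapped with its controls in MOLM13.

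**Figure D4:**
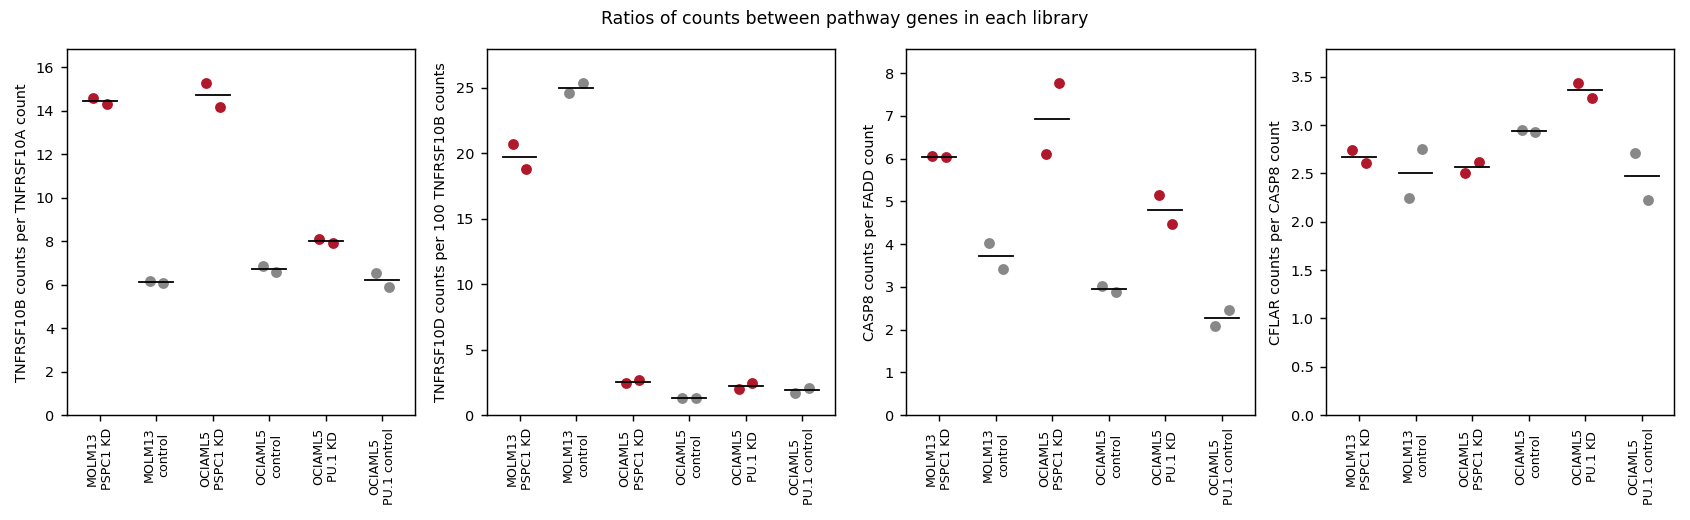
Ratios of counts between pairs of genes in every library on linear axes from 0, knockdown in red, control in grey, lines for means of 2 libraries. TNFRSF10B per TNFRSF10A is 14.2 to 15.3 in the PSPC1-knockdown libraries of both lines, against 6.10 to 6.86 in their controls, while CFLAR per CASP8 stays between 2.23 and 3.44 in all 12 libraries.

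The genes with the most similar patterns were found over the 8 libraries of the PSPC1 experiment, by the root mean square difference in centred log2 CPM among 10580 other genes of at least 5 CPM on average. MIR34AHG, host transcript of the microRNA miR-34a, and TIGAR, a p53 target that limits glycolysis, were nearest to FAS, with differences of 0.14 and 0.15 beside the 0.91 that FAS itself varied. LCP1, an actin-bundling protein of leukocytes, and CCNDBP1 were nearest to CFLAR at 0.06 each. KPNA5 and ZER1 were nearest to TNFRSF10B at 0.08 each, FBXO28 and ATG4D to CASP8 at 0.07 and 0.09, and HECTD3 and NCOA7 to CASP10 at 0.07 and 0.08. UNC13D and PAPLN came nearest to TNFRSF10D at 0.34 each, and PCBP4 and ST3GAL5 nearest to TNFSF10 at 0.12 and 0.13. PTOV1 and GOPC were nearest to TNFRSF10A at 0.04 and 0.06, and PGS1 and HINFP to FADD at 0.05 each. TNFRSF10C, with its low counts, had none nearer than AC092683.1 at 0.63 and GIPR, an incretin receptor gene, at 0.73.

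Other genes of the extrinsic pathway moved both ways. The list counts from here on are to be read beside the shares over all tested genes. These were 27.6% higher and 29.5% lower after PSPC1 knockdown in MOLM13, and 27.5% and 28.4% in OCIAML5. After PU.1 knockdown they were 29.6% and 30.9%. Of 9 tested genes for other receptors and ligands, 1 rose and 5 fell after PSPC1 knockdown in MOLM13, 4 rose and 3 fell after PSPC1 knockdown in OCIAML5, and 1 rose and 1 fell of 7 after PU.1 knockdown (median log2 fold changes -0.42, 0.72 and -0.06 in that order). The receptors of tumor necrosis factor were lower after PSPC1 knockdown in both lines. TNFRSF1B averaged 28.9 ± 3.36 CPM in MOLM13 PSPC1-knockdown libraries and 97.0 ± 4.31 CPM in controls (SD, n = 2 each, log2 fold change -1.75 ± 0.08), and TNFRSF1A fell by 1.03 ± 0.06. In OCIAML5 PSPC1-knockdown cells they fell by 0.78 ± 0.07 and 0.60 ± 0.07 in the same order, and after PU.1 knockdown TNFRSF1B fell by 0.37 ± 0.05. EDA2R, a p53-inducible receptor of the same family, had 66.3 and 65.7 CPM in OCIAML5 PSPC1-knockdown libraries, against 22.1 and 20.8 CPM in controls (1.62 ± 0.11).

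Among adaptors, ubiquitin enzymes and necroptosis genes, 11 rose and 12 fell of 29 after PSPC1 knockdown in MOLM13, 12 rose and 12 fell in OCIAML5, and 12 rose and 10 fell after PU.1 knockdown (medians -0.175, 0.02 and 0.17). CASP8AP2, a nuclear protein named for binding caspase-8, had 41.8 and 38.4 CPM in MOLM13 PSPC1-knockdown libraries, against 103 and 105 CPM in controls (-1.37 ± 0.08), and fell by 1.10 ± 0.07 in OCIAML5. XIAP, the inhibitor of executioner caspases, rose in all 3 knockdowns, by 0.79 ± 0.07 and 1.19 ± 0.07 after PSPC1 knockdown in MOLM13 and OCIAML5 in that order and by 0.66 ± 0.07 after PU.1 knockdown. Of 18 mitochondrial and execution genes, 5 rose and 11 fell in MOLM13, 7 rose and 7 fell in OCIAML5 after PSPC1 knockdown, and 3 rose and 11 fell after PU.1 knockdown (medians -0.42, 0.16 and -0.28). BCL2, an antiapoptotic protein, averaged 77.8 ± 4.66 CPM in MOLM13 PSPC1-knockdown libraries and 220.7 ± 1.66 CPM in controls (SD, n = 2 each, log2 fold change -1.51 ± 0.05), and fell by 1.59 ± 0.05 in OCIAML5. MCL1, also antiapoptotic, rose by 0.90 ± 0.04 after PSPC1 knockdown in OCIAML5, and the proapoptotic BAX rose there by 1.135 ± 0.05. BID, the protein that carries the caspase-8 signal to mitochondria, had 46.9 and 49.7 CPM after PU.1 knockdown, against 108 and 101 CPM in controls (-1.11 ± 0.06).

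Lists of other p53, interferon, NF-kB and stress-response genes, with TNFRSF10B and FAS left out, are given as counts, and their relation to the changes above was not tested. Of 22 p53 targets, 16 rose and 1 fell after PSPC1 knockdown in MOLM13 (median log2 fold change 0.57), 19 rose and 1 fell in OCIAML5 (0.92), and 14 rose and 4 fell after PU.1 knockdown (0.45). CDKN1A, the cell-cycle inhibitor p21, had 1140 and 1100 CPM in MOLM13 PSPC1-knockdown libraries, against 372 and 354 CPM in controls (1.62 ± 0.04), rose by 2.78 ± 0.04 in OCIAML5 and by 1.62 ± 0.04 after PU.1 knockdown. In the test between the lines 18 of these 22 genes had the lower effect in MOLM13 and 0 the higher, beside 18% and 12.5% of all genes. Of 36 interferon-stimulated genes, 32 rose and 0 fell in MOLM13 (median 1.69), 29 rose and 2 fell in OCIAML5 (1.15), and 24 rose and 2 fell after PU.1 knockdown (0.67).

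NF-kB targets were divided, with 7 higher and 7 lower of 18 in MOLM13, 9 higher and 3 lower of 18 in OCIAML5, and 9 higher and 6 lower of 17 after PU.1 knockdown (medians -0.16, 0.35 and 0.20). RELB, an NF-kB subunit, rose by 1.07 ± 0.10 in MOLM13 and 1.22 ± 0.16 in OCIAML5 after PSPC1 knockdown, where SOD2, the mitochondrial superoxide dismutase, fell by 1.97 ± 0.07 and 1.26 ± 0.07. The chemokine CXCL8 had 333 and 331 CPM after PU.1 knockdown, against 55.5 and 60.6 CPM in controls (2.51 ± 0.05). Genes of the ATF4 and CHOP stress response, which can induce TNFRSF10B, fell for 9 of 12 and rose for 2 in MOLM13, fell for 9 and rose for 1 in OCIAML5 after PSPC1 knockdown, and rose for 8 and fell for 2 after PU.1 knockdown (medians -1.37, -1.52 and 0.50). TRIB3, a pseudokinase induced by that response, had 16.1 and 18.9 CPM in MOLM13 PSPC1-knockdown libraries, against 79.7 and 72.8 CPM in controls (-2.12 ± 0.10). All lists were chosen with earlier results of these data known, and nothing is called particular to a list from its count.

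**Figure D5:**
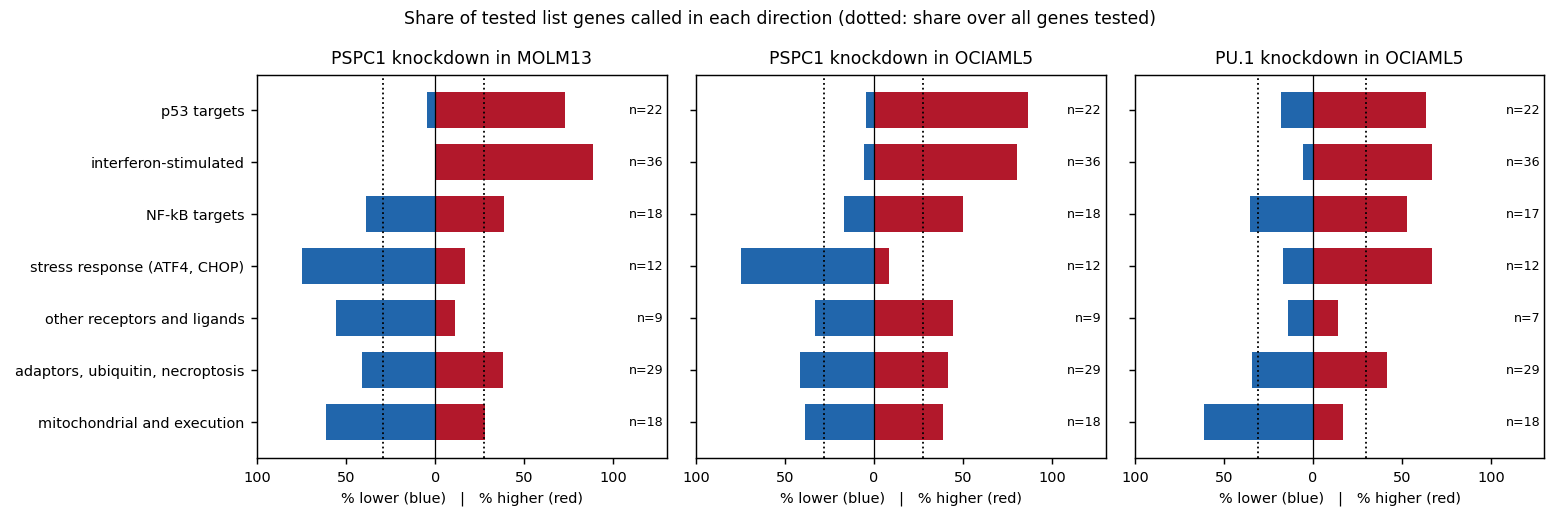
Share of the tested genes of each list that were called lower (blue, to the left) and higher (red, to the right) in each knockdown, with the number tested and, as dotted lines, the shares over all genes tested. Interferon-stimulated genes and p53 targets extend to the right in all 3 knockdowns, and the ATF4 and CHOP stress genes extend to the left after PSPC1 knockdown in both lines and to the right after PU.1 knockdown.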

How the data were processed

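The authors deposited raw counts for each gene, 1 table for 8 PSPC1 libraries and 1 table for 4 PU.1 libraries, and per the submitters' processing notes Trim Galore 0.6.7, STAR 2.7.10a, HTSeq 2.0.2, DESeq2 1.36.0 and GRCh38 were used. Their roles, the annotation release and the strand setting were not given in the sources used here, though the labels name a stranded kit.

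Groups came from the labels. Counts were fitted in edgeR 4.0.16 (R 4.3.3) with the filterByExpr filter, TMM factors and the quasi-likelihood F test over all genes, adjusted by the Benjamini-Hochberg method with a threshold of 0.05. The PSPC1 libraries were fitted together, the PU.1 libraries apart, and the 8 OCIAML5 libraries joined for the difference of effects, with 4, 2 and 4 residual degrees of freedom and a biological coefficient of variation of 4.7%, 4.1% and 4.5%. CPM use TMM-scaled library sizes. Intervals and floors of 3 counts over a group cover counting error only. The procedure was tested on simulated data with 200 changed genes among otherwise unchanged ones, for comparisons of 2 groups only. The data themselves had far more called genes, and the differences of effects were not simulated, so that test does not cover them. The variance between libraries of a group was 2.6 to 4.66 times that of counting alone (chi-square per degree of freedom over genes), so no pair was treated as a duplicate.

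Members and lists were chosen with earlier results of these data known. All 10 members are named, and of each list up to 3 genes per comparison with the smallest adjusted p among called genes of at least 5 CPM, plus PSPC1, SPI1 and the 2 most alike genes per member. Overlapping genes were added after their counts were seen. Alternatives were DESeq2 1.42.0, RLE factors, library size alone, other filters and thresholds, a replicate block, subsets and leaving out each library. Lengths and positions are from GENCODE and promoters from RefSeq. Plots used Python 3.11.15 and matplotlib 3.10.9.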

Additional observations from a re-analysis of the deposited data

Results flagged for a closer look

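The PSPC1 effect differed between MOLM13 and OCIAML5 by the interaction test (edgeR, adjusted over all genes) for 6 genes, given as the effect in MOLM13 minus that in OCIAML5 on the log2 scale. TNFSF10 differed by 1.23, with a rise in MOLM13 and a fall in OCIAML5 that was lost with DESeq2, with library size alone and without any 1 of 3 OCIAML5 libraries. TNFRSF10A differed by -0.52, again with calls of opposite sign, each lost when certain single libraries of its line were left out. Both differences themselves passed without any one of the 8 libraries. TNFRSF10D differed by -1.72, FAS by -0.88, CASP8 by -0.44 and TNFRSF10B by -0.42, all higher after knockdown in both lines and by more in OCIAML5. In control cells 5 of these 6 genes were higher in MOLM13 than in OCIAML5, and TNFSF10 was lower.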

How the results depend on the processing

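All calls of single members kept their direction with RLE size factors, a filter of 1 CPM, the 4 libraries of a line alone and the joined OCIAML5 libraries. A replicate block changed no member's call, with 9289, 9125 and 9941 genes called in the 3 knockdowns in the order of the report, 4971 between the lines, 7688 between PU.1 and PSPC1 effects and 9874 between controls. Same-numbered libraries did not deviate together (r = 0.04, -0.01 and -0.07). No pairing by number was seen, but with 2 libraries per group none can be excluded. Requiring at least 2-fold left 3425, 3136 and 2954 genes in the knockdowns, 1381 between the lines, 2598 between the effects and 4514 between controls, and 2, 5, 2, 2, 3 and 3 members in that order, since most changes were under 2-fold. Leaving out 1 library gave 8192 to 8387, 8055 to 8418, 8765 to 9443, 4354 to 4832, 6919 to 7636 and 8854 to 9364 genes, and 8 to 9, 6 to 8, 8 to 8, 5 to 6, 5 to 6 and 8 to 9 members. These member counts include TNFRSF10C in MOLM13 and between controls, though it passed the filter only through the MOLM13 knockdown libraries. Its calls are therefore no support. The 2 members at 2-fold in MOLM13 are FAS and TNFRSF10C. In the main fits 16457 genes were tested in the PSPC1 experiment, 16861 in the PU.1 experiment and 17159 for PU.1 minus PSPC1. Signs turned only in differences that had not passed. Leaving out 1 library, CASP10 ranged from -0.0096 to 0.18 and CFLAR from -0.072 to 0.019 for PU.1 minus PSPC1, FADD from -0.13 to 0.18 after PSPC1 knockdown in OCIAML5 and from -0.069 to 0.24 between the lines, and TNFRSF10A from -0.0011 to 0.14 after PU.1 knockdown. With library size alone CFLAR for PU.1 minus PSPC1 was 0.021. That scaling moved the median of all genes by 0.15 after PU.1 knockdown and the share of higher calls to 62.2%, against 48.9%, with all 8 member calls kept. DESeq2 called 8490, 8200 and 8731 genes in the knockdowns. The 3 smallest called changes of single members in a knockdown, -0.24 and 0.28 for TNFRSF10A and -0.41 for TNFSF10 in OCIAML5, were lost when certain single libraries were left out.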
